A study of Homo sapiens with 6 samples.

Results

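Fibulins, fibrillins and small matrix proteoglycans were described in LN229, an established human glioblastoma cell line, across 3 libraries of cells overexpressing HSD52 (HSD52_OE) and 3 libraries labelled as wild-type control. The group was chosen by gene name with earlier results of this same contrast known, and it held 10 of the 58735 genes in the count table: FBLN1, FBLN2, FBLN5, EFEMP1, EFEMP2, FBN1, FBN2, LUM, DCN and BGN. HSD52 is a long non-coding RNA gene. The labels do not say how it was overexpressed, whether control cells carried an empty vector, whether HSD52_OE cells were a clone or a pool, or whether replicates were separate cultures, so the spread between libraries may be partly technical.

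These genes encode secreted proteins of the extracellular matrix. Fibrillins polymerise into microfibrils, and fibulins bind microfibrils, elastin and lysyl oxidases while elastic fibres form. Lumican, decorin and biglycan are small leucine-rich proteoglycans that carry glycosaminoglycan chains, bind collagen fibrils and, in the case of decorin and biglycan, also bind growth factors or signalling receptors. In the brain such proteins lie mostly around vessels and in the meninges, and fibulin-3, the product of EFEMP1, is known as a secreted protein of glioblastoma cells.

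HSD52 had 1252, 1336 and 1327 counts in the HSD52_OE libraries, against 11, 7 and 12 in the control libraries. Library totals were 17777157 to 18917790 counts in HSD52_OE and 18250494 to 18574853 counts in control. At this similar depth, 26359 to 26755 genes had a count in the HSD52_OE libraries and 22855 to 23545 in the control libraries. The part of this difference in the results on genes with few counts, such as FBLN5 and ELN, was not tested. Of the 16322 genes tested, 25.0% were called higher and 25.6% lower in HSD52_OE (quasi-likelihood test of edgeR at a Benjamini-Hochberg value under 0.05). Of the 13155 protein-coding genes among them, to which all members and list genes belong, 21.4% were called higher and 30.1% lower, with a median log2 fold change of -0.06. With library totals in place of composition scaling, 5337 genes were called higher and 2933 lower, against 4086 and 4173, and the median over all genes was 0.13 in place of 0.01 on the log2 scale. Of the glioma and astroglial markers VIM, NES, CD44, S100B, SOX2, EGFR, OLIG2 and GFAP all averaged above 1 CPM in each group, while AQP4 and ALDH1L1 were at or near 0.

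Of the 10 members, 9 passed the filter on low counts, and 3 were called higher, 5 lower and 1 neither, where 25.0% of all genes tested were called higher, 25.6% lower and so 50.6% in either direction, and 21.4% of protein-coding genes were called higher and 30.1% lower. At a fold of at least 2 the counts were 2 higher and 4 lower, beside 10.5% and 3.49% of all genes. The groups did not overlap for the same 8 members, 3 higher and 5 lower, beside 29.6% and 29.3% of all genes. Since the members were chosen with this contrast in view, their counts and fold changes are a description. The fibulin members differed in direction: FBLN5, FBLN1 and EFEMP2 were higher and EFEMP1 was lower in HSD52_OE. All 3 proteoglycans were lower, FBN2 was lower, and FBN1 was not called. The median log2 fold change of the 9 members was -0.85, and that of all genes tested was 0.01.

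**Figure D1:**
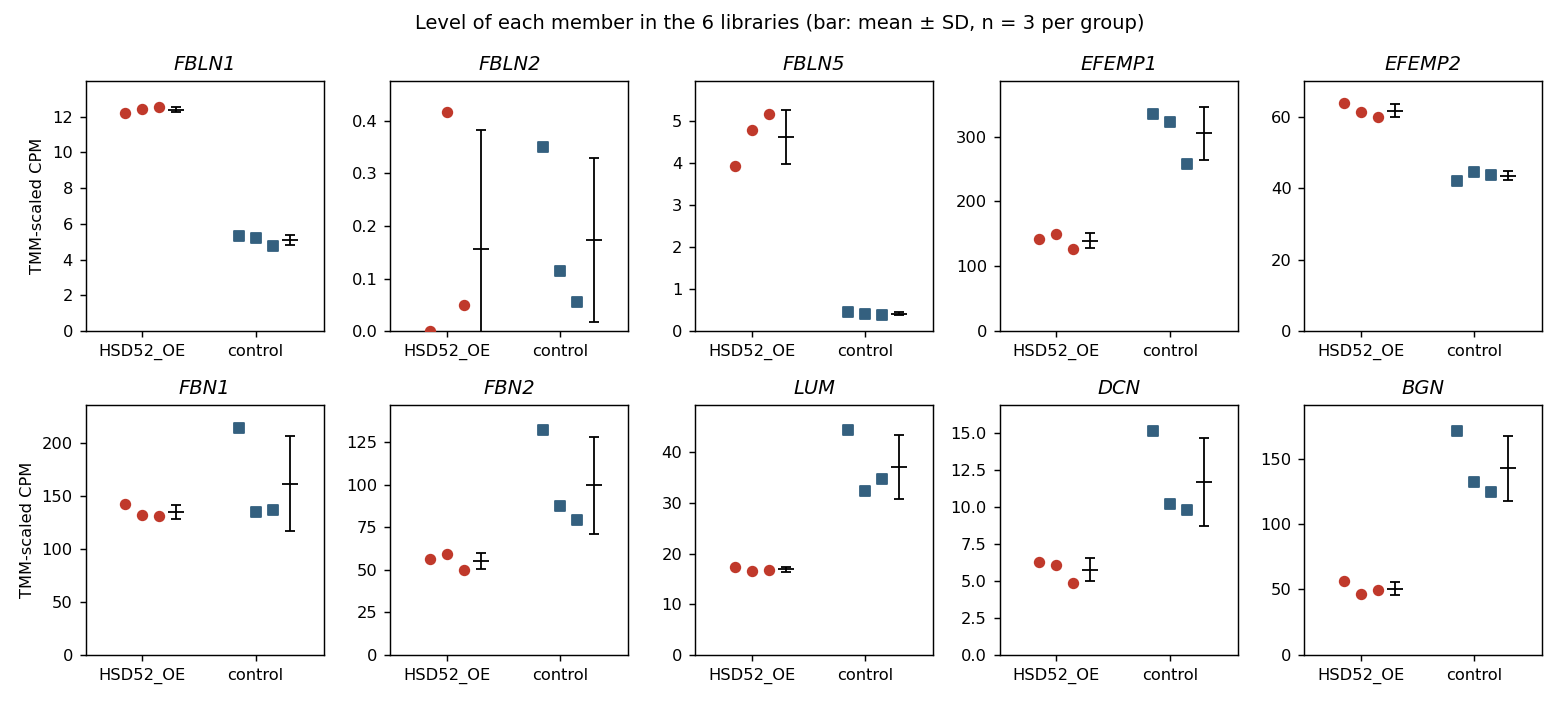
TMM-scaled CPM of each member in the 3 HSD52_OE libraries (red circles) and the 3 control libraries (blue squares), one panel a gene with its own axis starting at 0, and the mean ± SD of 3 libraries as a bar. FBLN1, FBLN5 and EFEMP2 lie higher in every HSD52_OE library, EFEMP1, FBN2, LUM, DCN and BGN lie lower, and FBN1 and FBLN2 overlap between the groups.

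FBLN5 had the largest difference of the members. It encodes fibulin-5, which binds tropoelastin, lysyl oxidase-like enzymes and integrins and is needed for elastic fibres in mice. The gene lies on chromosome 14, 91869412 to 91947987, minus strand (hg38, as are all gene positions here). It had 73, 92 and 102 counts in HSD52_OE, or 3.93, 4.79 and 5.18 CPM, against 8, 7 and 7 counts in control, or 0.467, 0.398 and 0.389 CPM. FBLN5 passed the filter on low counts through the HSD52_OE libraries alone, so that a tested FBLN5 had to be higher there. The lowest HSD52_OE library was well above the highest control library. The log2 fold change was 3.45 ± 0.28 (SE), and the ratio of summed counts was 11.1 with a 95% exact binomial interval of 7.20 to 18.1, which covers counting error only. Per kilobase of exon its mean level stood at the 20.7th percentile of all genes tested in HSD52_OE and at the 2.44th percentile in control, so FBLN5 was a low transcript in each group.

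FBLN1 (chromosome 22, 45502238 to 45601135, plus strand) encodes fibulin-1, a protein of basement membranes and elastic fibres that binds fibronectin. Its levels were 12.2, 12.4 and 12.5 CPM in HSD52_OE, against 5.31, 5.24 and 4.77 CPM in control, from 227 to 247 and 86 to 92 counts. The libraries of each group lay close together, and the log2 fold change was 1.28 ± 0.14 (SE). EFEMP2 (chromosome 11, 65866441 to 65873592, minus strand) encodes fibulin-4, which brings lysyl oxidase to tropoelastin. It had 63.8, 61.4 and 60.1 CPM in HSD52_OE, against 42.1, 44.6 and 43.8 CPM in control. This was the smallest of the called differences, a log2 fold change of 0.51 ± 0.08, with an SD near 3% of the mean in each group. EFEMP2 overlaps MUS81 on the opposite strand in 11 exonic bases, and MUS81 itself had a log2 fold change of -0.12 and was not called.

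EFEMP1 (chromosome 2, 55865967 to 55924139, minus strand) had the highest mean level of the members per kilobase of exon in each group. Among the fibulin members it was the one called lower in HSD52_OE, and FBLN7, a fibulin gene outside the members, was also called lower. Its levels were 142, 149 and 127 CPM in HSD52_OE, against 335, 322 and 258 CPM in control. Its log2 fold change was -1.13 ± 0.11 (SE), and the highest HSD52_OE library lay far under the lowest control library. Per kilobase of exon it stood at the 92.3rd percentile of all genes tested in HSD52_OE and at the 96.6th in control. FBLN2 (chromosome 3, 13549131 to 13638422, plus strand), whose product fibulin-2 binds basement membrane proteins and lecticans, had 0, 8 and 1 counts in HSD52_OE and 6, 2 and 1 in control. It did not pass the filter. The summed counts were 9 in each group, at a ratio of 0.917 whose counting interval ran from 0.322 to 2.61, so a difference within that interval was not detectable at this depth.

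The promoters of the 3 fibulin genes that were higher are shown because these members differ in the same direction. They are the 250 bases before the RefSeq start on the gene's strand (GRCh38.p14), at chr14:91947695-91947944 for the upstream start of FBLN5, chr22:45502633-45502882 for FBLN1 and chr11:65872801-65873050 for EFEMP2. Capitals mark matches on either strand to the TATA box (TATAAA), the CCAAT box, the GC box (GGGCGG) or the AP-1 motif with a free middle base (TGANTCA). Matches that overlap run together and were each counted:
FBLN5: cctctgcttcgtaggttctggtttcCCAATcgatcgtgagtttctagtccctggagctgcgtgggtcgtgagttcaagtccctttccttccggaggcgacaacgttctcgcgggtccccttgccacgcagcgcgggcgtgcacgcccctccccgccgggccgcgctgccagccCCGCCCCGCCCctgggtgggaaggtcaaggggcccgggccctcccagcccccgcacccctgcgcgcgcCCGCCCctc
FBLN1: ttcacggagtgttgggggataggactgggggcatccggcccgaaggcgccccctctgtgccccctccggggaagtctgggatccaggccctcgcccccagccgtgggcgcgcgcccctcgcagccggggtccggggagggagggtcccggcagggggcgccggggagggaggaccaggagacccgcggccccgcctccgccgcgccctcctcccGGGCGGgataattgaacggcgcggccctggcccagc
EFEMP2: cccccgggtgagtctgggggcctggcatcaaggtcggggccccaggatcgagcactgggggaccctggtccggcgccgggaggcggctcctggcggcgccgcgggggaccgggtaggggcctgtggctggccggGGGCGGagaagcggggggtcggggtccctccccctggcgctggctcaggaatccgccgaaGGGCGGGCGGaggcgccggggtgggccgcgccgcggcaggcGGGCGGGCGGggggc
GGGCGG, or its reverse complement CCGCCC, occurred 3 times before this FBLN5 start, 1 time before FBLN1 and 5 times before EFEMP2. Promoter sequence was matched for 7 of the 10 members, with 9 starts in all. GGGCGG was found in 7 of these 9, with at least 1 match in 6 of the 7 members, and in 42.6% of all 35116 promoters of the same length. The CCAAT motif was found in 3 of the 9, including both FBLN5 starts, and in 32.0% of all promoters. TATAAA was found in 1 of the 9, 33 bases before the downstream FBLN5 start, and in 10.7% of all promoters. TGANTCA was in 0 of the 9 and in 6.57% of all promoters. A match describes the letters in these windows and is not a binding site.

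The make-up of transcripts of the 5 fibulin members differed accordingly between the groups. Fibulin relatives outside the members were left out of the sum. Of these, HMCN1 averaged 9.95 CPM per kilobase in HSD52_OE and 19.3 in control, and FBLN7 averaged 2.19 and 6.42. As a share of the summed CPM per kilobase of the 5 fibulin members, EFEMP1 held 69.7% to 72.7% in HSD52_OE and 88.0% to 90.7% in control. EFEMP2 held 22.0% to 24.3% in HSD52_OE and 8.37% to 11.0% in control. FBLN1 held 3.29% to 3.75% in HSD52_OE and 0.782% to 0.885% in control. FBLN5 held 1.58% to 2.27% in HSD52_OE and 0.0893% to 0.106% in control. The sum itself was 49.3 ± 3.06 CPM per kilobase in HSD52_OE and 85.9 ± 10.4 in control (SD, n = 3 each). In each group most of this sum came from EFEMP1, the member that was lower. These shares use lengths that count every annotated exon and depend on that choice. Over principal transcripts alone, EFEMP2 averaged 30.4 and EFEMP1 57.5 CPM per kilobase in HSD52_OE. In control the same measure gave 21.4 for EFEMP2 and 126 for EFEMP1.

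**Figure D2:**
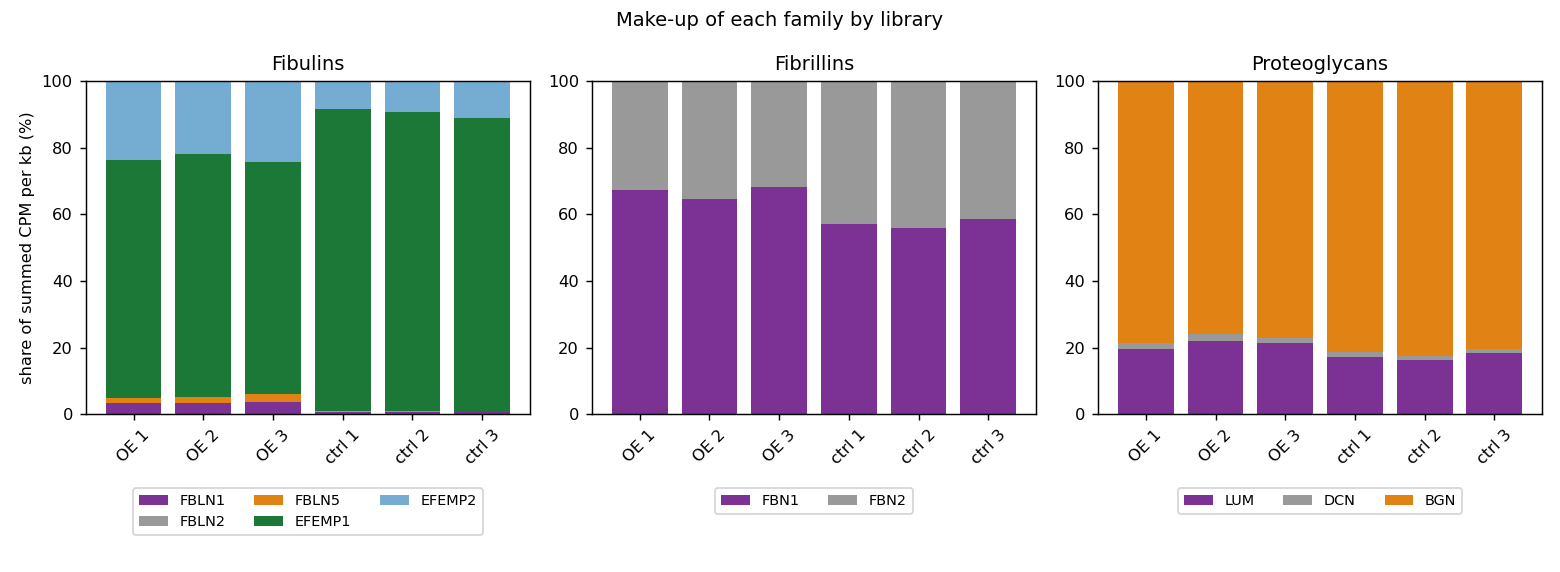
Share of each gene in the summed CPM per kilobase of the members of its family (percent), for HSD52_OE libraries 1 to 3 (OE, left) and control libraries 1 to 3 (ctrl, right). EFEMP1 makes up 69.7% to 72.7% of the sum of the fibulin members in HSD52_OE and 88.0% to 90.7% in control. FBN1 makes up 64.7% to 68.2% of the sum of the fibrillin members in HSD52_OE and 55.8% to 58.6% in control. BGN dominates the proteoglycan members in all 6 libraries. Lengths count every annotated exon, and the shares depend on that choice.

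The fibrillins differed from each other. FBN1 (chromosome 15, 48408306 to 48645849, minus strand) encodes fibrillin-1, the main microfibril protein of adult tissue, altered in Marfan syndrome. It had 142, 132 and 130 CPM in HSD52_OE, against 213, 134 and 136 CPM in control. Control replicate 1 was high and the other control libraries lay among those of HSD52_OE, so the groups overlapped. Its log2 fold change was -0.26 with a 95% interval of -0.60 to 0.08, and it was -0.02 without control replicate 1. FBN2 (chromosome 5, 128257909 to 128659185, minus strand) encodes fibrillin-2, a microfibril protein best known from development. It had 56.3, 59.0 and 50.0 CPM in HSD52_OE, against 132, 87.5 and 79.2 CPM in control. These groups did not overlap, and the log2 fold change was -0.85 ± 0.17 (SE), or -0.61 without control replicate 1. The ratio of FBN1 to FBN2 per kilobase was 1.83 to 2.15 in HSD52_OE and 1.26 to 1.42 in control. Control replicate 1, high in each gene alone, did not stand apart in this ratio, at 1.33. FBN2 shares 56 exonic bases with SLC27A6 on the opposite strand, which had 6 counts in HSD52_OE and 36 in control in all.

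All 3 proteoglycan genes were lower in HSD52_OE, and BGN differed the most. BGN (chromosome X, 153494939 to 153509554, plus strand) encodes biglycan, whose soluble form is known to engage the receptors TLR2 and TLR4. It had 56.6, 46.3 and 49.3 CPM in HSD52_OE, against 171, 133 and 125 CPM in control, a log2 fold change of -1.49 ± 0.12 (SE). The 250 bases before its RefSeq start, chrX:153494730-153494979 on the plus strand, are given with the same marking as for the fibulins, as those of the member with the largest decrease:
BGN: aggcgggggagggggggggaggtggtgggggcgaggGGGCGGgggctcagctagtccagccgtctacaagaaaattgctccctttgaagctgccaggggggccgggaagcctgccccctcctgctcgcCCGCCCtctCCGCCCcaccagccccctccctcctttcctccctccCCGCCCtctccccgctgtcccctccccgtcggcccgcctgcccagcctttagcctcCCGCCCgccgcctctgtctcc
They held 5 matches to GGGCGG on either strand and 0 to the other motifs, so the number of matches was that of EFEMP2, which was higher in HSD52_OE. Some of the EFEMP2 matches overlap, while those of BGN lie apart. HAUS7, on the opposite strand, overlaps the BGN gene body but no BGN exon.

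LUM and DCN are neighbours on the minus strand of chromosome 12, at 91102629 to 91111831 and 91140484 to 91183123, with starts, on that strand, 71.3 kb apart. LUM encodes lumican, a keratan sulfate proteoglycan that spaces collagen fibrils. It had 17.4, 16.5 and 16.8 CPM in HSD52_OE, against 44.4, 32.4 and 34.7 CPM in control, a log2 fold change of -1.14 ± 0.12 (SE). DCN encodes decorin, which binds collagen, TGF-beta and the receptors EGFR and MET. It had 6.30, 6.09 and 4.88 CPM in HSD52_OE, against 15.1, 10.2 and 9.77 CPM in control, a log2 fold change of -1.02 ± 0.18. Neither gene overlapped between the groups. The nearest tested protein-coding genes outside the pair lay far off. The start of ATP2B1 was 1403 kb from that of LUM, and the start of BTG1 was 963 kb from that of DCN. ATP2B1 and BTG1 had log2 fold changes of 0.33 and 0.03. ATP2B1 was called higher, a call that was lost without HSD52_OE replicate 1, HSD52_OE replicate 2 or control replicate 2.

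Around the other members the nearest tested protein-coding genes did not share one direction. Their starts lay from 0.577 kb (HAUS7 from BGN) to 1983 kb (VRK2 from EFEMP1) from that of the member. TRIP11, next to FBLN5, was called higher with a log2 fold change of 0.38, and PPP4R3A on its other side had 0.04. FAM118A and ATXN10 beside FBLN1, and PNPT1 and VRK2 beside EFEMP1, were not called, though ATXN10 and PNPT1 were called higher without control replicate 3, with log2 fold changes of 0.18 and 0.22, and with library totals. Beside BGN, HAUS7 was called higher with 1.21 and CCNQ lower with -0.53, both as log2 fold changes. ISOC1, next to FBN2, was called lower with -0.91, while SLC12A2 on the other side was called higher with 0.39. FIBP, next to EFEMP2, was called lower with -0.50, against the direction of EFEMP2. CEP152 beside FBN1 was called higher with 0.47, and DUT on its other side was called lower without control replicate 1 alone, with -0.28 in that fit. HDAC11 beside FBLN2 was called lower without control replicate 2 alone, with -0.39, and CHCHD4 was not called.

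**Figure D3:**
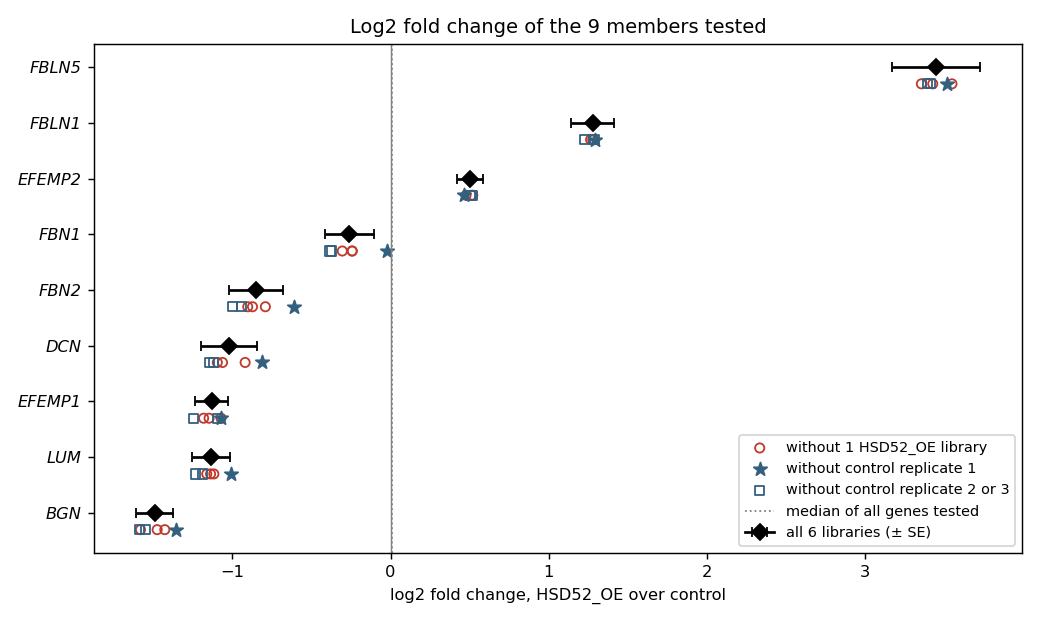
Log2 fold change, HSD52_OE over control, of the 9 members tested, with all 6 libraries (black diamonds, ± SE) and with each library left out in turn (open symbols, and a star for control replicate 1). The values with all libraries run from 3.45 for FBLN5 to -1.49 for BGN, FBN1 reaches -0.02 without control replicate 1, and the proteoglycans and fibrillins lie nearest to 0 without that library.

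The members varied more among control libraries than among HSD52_OE libraries. The median SD over the 9 tested was 17.0% of the mean in control and 8.30% in HSD52_OE, beside 12.5% and 6.38% for all genes tested in the same groups. Control replicate 1 was the highest of the 3 control libraries for 9 of the 10 members, EFEMP2 being the exception, while it was the highest for 31.0% of all genes tested. Without it, the members were still 3 called higher and 5 called lower, and the log2 fold changes became -0.81 for DCN, -1.01 for LUM and -1.36 for BGN.

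Per kilobase of exon, the order of mean levels in HSD52_OE was EFEMP1, BGN, EFEMP2, FBN1, LUM, FBN2, FBLN1, FBLN5, DCN and FBLN2. It ran from 35.1 CPM per kilobase for EFEMP1 to 0.931 for FBLN5, 0.448 for DCN and 0.0323 for FBLN2, and no neighbours in this order overlapped over the 3 libraries. In control the order was EFEMP1, BGN, LUM, FBN1, EFEMP2, FBN2, DCN, FBLN1, FBLN5 and FBLN2. There EFEMP1 and BGN, LUM and FBN1, and EFEMP2 and FBN2 overlapped as neighbours. These lengths count every annotated exon, which is 12847 bases for DCN. Over the principal transcripts alone, 2133 bases for DCN, its level was 2.70 in HSD52_OE and 5.48 in control, and EFEMP2 stood above BGN in HSD52_OE, at 30.4 against 21.1 CPM per kilobase.

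Genes that build elastic fibres and microfibrils with the members differed in each direction. Of 21 tested, 4 were called higher and 9 lower (19.0% and 42.9%). The shares were 25.0% and 25.6% over all genes, and 21.4% and 30.1% over protein-coding genes. The median log2 fold change of the list was -0.22. FBLN7, a further fibulin gene, fell to 14.4 ± 1.83 CPM in HSD52_OE, against 42.2 ± 2.28 CPM in control (log2 fold change -1.55, edgeR adjusted p = 5.25e-08). HMCN1, a hemicentin related to fibulins, fell to 185 ± 8.17 CPM, against 358 ± 74.2 CPM in control (edgeR adjusted p = 1.11e-05). EMILIN1, an elastin interface protein, fell to 367 ± 18.6 CPM, against 705 ± 181 CPM in control (edgeR adjusted p = 0.000233). ELN, which encodes elastin itself, is among the 4 called higher but passed the filter through the HSD52_OE libraries alone, as did ADAMTS10, also called higher. It had 59 counts in HSD52_OE and 5 in control, at a ratio of 10.8 whose counting interval ran from 4.38 to 34.5. The latent TGF-beta binding genes LTBP1 and LTBP2, relatives of the fibrillins, were called lower, with log2 fold changes of -0.61 and -0.84. The more abundant LTBP3 and LTBP4 were not called. LTBP3 averaged 495 ± 16.3 CPM in HSD52_OE and 492 ± 96.0 CPM in control, and LTBP4 averaged 102 ± 4.54 CPM in HSD52_OE and 106 ± 13.4 CPM in control (SD, n = 3 each). Of 9 list genes that were not tested, such as LOXL1, MFAP4 and MFAP5, all averaged below 1 CPM in each group.

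Few other small leucine-rich proteoglycans were detected. Of 15, 4 were tested, 0 were called higher and 2 lower (0% and 50.0%), beside 21.4% and 30.1% of protein-coding genes. In the family, 11 averaged below 1 CPM in each group, and FMOD, EPYC and KERA were at 0 in all 6 libraries. PRELP, a collagen-binding member of the family, fell to 4.31, 3.75 and 2.89 CPM in HSD52_OE, against 21.0, 12.5 and 14.1 CPM in control (log2 fold change -2.12 ± 0.20, edgeR adjusted p = 8.47e-07). TSKU, a secreted inhibitor of signalling ligands, fell by 0.27 on the log2 scale (edgeR adjusted p = 0.0129), a call that was lost without HSD52_OE replicate 1 (0.0544) or 2 (0.0851) and with library totals. This left 1 of the family called lower in each of those fits.

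Enzymes and transporters for the chains that proteoglycans carry were described next to the core proteins. Of 29 tested, 2 were called higher and 14 lower (6.90% and 48.3%), beside 21.4% and 30.1% of protein-coding genes, with a median log2 fold change of -0.28. B3GNT7, which extends keratan sulfate, fell to 53.1 ± 3.14 CPM in HSD52_OE, against 145 ± 6.22 CPM in control (edgeR adjusted p = 6.94e-09). PAPSS2, which makes the sulfate donor, fell by 0.89 and CHSY3, a chondroitin synthase, by 1.65 on the log2 scale. SLC26A2, the sulfate transporter, rose to 1700 ± 67.9 CPM, against 933 ± 94.1 CPM in control (log2 fold change 0.86). DSE, an epimerase that makes dermatan sulfate, was not called, at -0.28.

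Of 19 larger proteoglycan and hyaluronan genes tested, 6 were called higher and 6 lower (31.6% in each direction, beside 21.4% and 30.1% of protein-coding genes). Their median was 0.16 on the log2 scale. SPOCK3, among them, passed the filter through the control libraries alone. The counts were 8 higher and 4 lower with library totals, 7 and 4 without HSD52_OE replicate 3, and 6 and 8 without control replicate 3. CSPG4 fell by 0.90 and HSPG2, which encodes perlecan, by 0.92 on the log2 scale, while SPOCK1, a testican gene, rose by 0.58 and HMMR, a hyaluronan-binding protein also active at the spindle, by 1.15. VCAN, which encodes versican, a partner of fibulin-1 and fibulin-2, was not called, at 0.16, but was called higher without control replicate 1, at 0.34. Fibrillar collagens, to which lumican and decorin bind, held 3 higher and 3 lower of 11 (27.3% in each direction, against the same shares). COL3A1 and COL1A2 were called lower, with 13 and 7 counts in all in HSD52_OE against 852 and 163 in control, and passed the filter through the control libraries alone. COL11A2 rose to 330 ± 16.6 CPM, against 135 ± 18.7 CPM in control, and COL5A2 rose by 1.52.

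**Figure D4:**
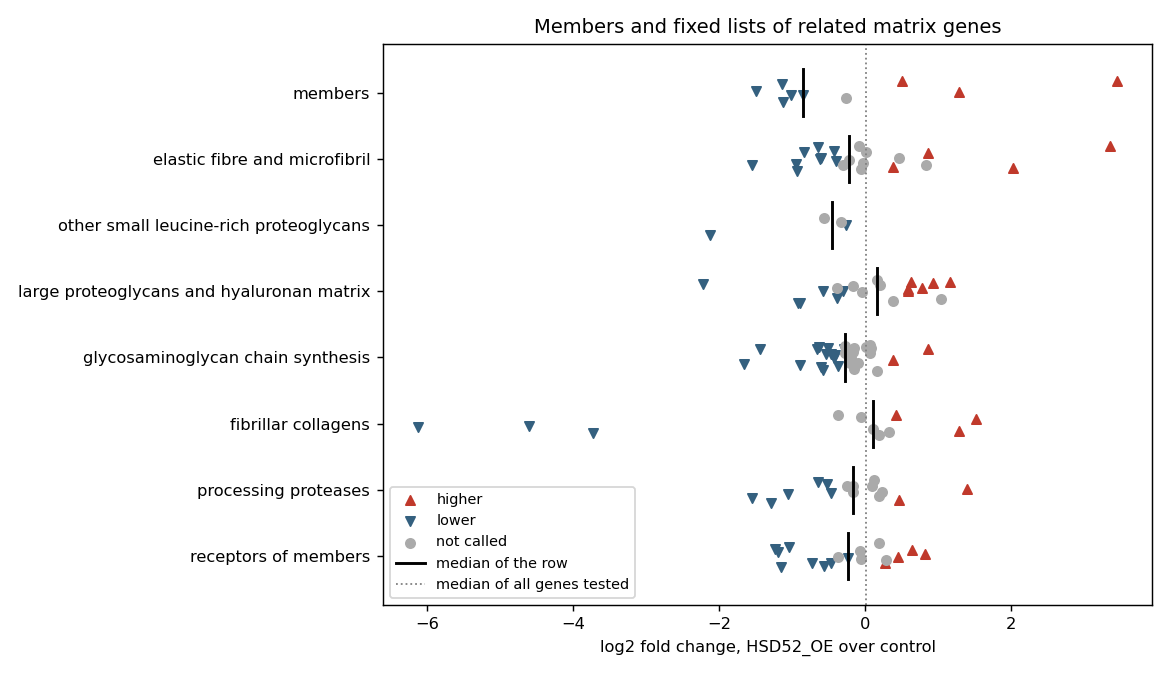
Log2 fold change, HSD52_OE over control, of each tested gene among the members and in 7 lists of related matrix genes. Triangles mark genes called higher (red, up) or lower (blue, down), grey circles those not called, black bars the median of each row, and the dotted line the median of all genes tested. Chain synthesis genes lie mostly below 0, with a median of -0.28, and fibrillar collagens reach from -6.12 to 1.52.

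Proteases and receptors that act on the members were called in each direction. Of 15 proteases and inhibitors tested, 2 were called higher and 6 lower (13.3% and 40.0%, beside 21.4% and 30.1% of protein-coding genes), with a median log2 fold change of -0.17, but without control replicate 1 the counts were 5 higher and 4 lower. HTRA3, among the genes tested, passed the filter through the control libraries alone. MMP2 fell by 1.29 and HTRA1, a serine protease known to cut fibulins, by 0.52 on the log2 scale, while TIMP1 rose by 0.46 and TLL2, a tolloid protease, by 1.39. BMP1, the tolloid-type protease that processes the biglycan precursor, was not called, at 0.22, but was called higher without control replicate 1, at 0.33, and under 3 other alternatives. Of 17 receptors tested, 4 were called higher and 8 lower (23.5% and 47.1%, beside the same shares), with a median of -0.24, and 2 were called higher without HSD52_OE replicate 1. Among those known to bind biglycan or decorin, TLR4 rose to 70.8 ± 1.91 CPM in HSD52_OE, against 40.1 ± 0.924 CPM in control (edgeR adjusted p = 1.35e-06), and EGFR fell by 1.05 on the log2 scale. TLR2 had 0 counts in all 6 libraries. The integrin genes ITGA9 and ITGA5 fell by 1.20 and by 1.16 on the log2 scale.

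Markers of fibroblasts, which also express most of the members, were mostly lower in HSD52_OE, as were 5 of the members, while FBLN5, FBLN1 and EFEMP2 were higher. Of 14 such genes outside the members, 10 were tested, 1 was called higher (FAP) and 9 lower. These were 10% and 90% of those tested, beside 21.4% and 30.1% of protein-coding genes. COL3A1 and COL1A2, among those called lower, passed the filter through the control libraries alone, so that they had to be lower in HSD52_OE. The 14 markers summed to 75.9 to 80.4 CPM in HSD52_OE and 149 to 254 CPM in control. TCF21 was at 0 in all libraries, and the part of these markers in the result was not tested. In a bulk culture, fewer cells of a type and less RNA per cell cannot be told apart. Pericyte and smooth muscle markers summed to 848 to 914 CPM in HSD52_OE and 934 to 1404 CPM in control, with 4 called higher and 4 lower of 8 (50.0% in each direction, beside the same shares). Endothelial markers summed to 4.68 to 6.46 CPM in HSD52_OE and 3.50 to 5.12 CPM in control. Of 4 tested, 2 were called higher and 1 lower (50.0% and 25.0%, beside the same shares), and TIE1 and PECAM1 passed the filter through 1 group alone. Macrophage and leukocyte markers summed to 1.72 to 3.05 CPM in HSD52_OE and 1.17 to 2.79 CPM in control, and CD14 and CSF1R, the 2 tested, were not called. C1QA, C1QB and AIF1 were at 0 in all libraries.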

How the data were processed

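Poly(A) RNA of 6 libraries was sequenced. The deposited values are raw read counts per gene. Per the submitters' processing notes, CASAVA, HISAT2 2.0.5, the hg38 build and featureCounts 1.5.0-p3 were used. The strand setting is not given in the sources used here. How reads in exonic bases shared by genes on opposite strands were treated is therefore not known. Among the members these are 11 bases of EFEMP2 and 56 bases of FBN2. Gene lengths are the deposited values, equal for the members to the exonic bases of GENCODE 29, which holds all 58735 gene IDs.

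The members, lists and tests were chosen with earlier results of these data known. Genes passing filterByExpr were scaled by TMM and fitted in R 4.3.3 with edgeR 4.0.16 (limma 3.58.1 loaded), using its robust 2-sided quasi-likelihood test with group as the sole term. Calls used a Benjamini-Hochberg value under 0.05 across the whole table. The steps were tested on simulated counts. CPM uses TMM-scaled sizes, SD is over 3 libraries, and intervals of count ratios cover counting error only. The 95% interval on the log2 fold change of FBN1 is from the edgeR fit, which also models the spread between libraries. Named genes were all members, up to 4 called genes with the smallest p in each of 7 lists, HSD52, and the genes next to or overlapping each member. Other list genes were named after their values were seen. In the 5 marker lists and the 7 others, symbols were matched to the table, where ADAMTSL6 was not found. DESeq2 1.42.0 and limma-voom were among 15 alternatives. Motifs were searched in RefSeq promoters (GRCh38.p14).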

Additional observations from a re-analysis of the deposited data

How the results depend on the processing

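The 3 members called higher kept that count under every one of 15 alternatives except a fold of at least 2, which left 2 higher and 4 lower. The count of lower members was 5, or 6 with no low-count filter and with the replicate block, where FBN1 was called (adjusted p = 0.00653 in edgeR with no filter and 0.0453 with the block); otherwise its adjusted p was 0.0766 to 0.821. Library totals alone moved the counts to 1 lower small proteoglycan, 4 higher chain synthesis genes and 4 higher proteases, and with no low-count filter 1 small proteoglycan was higher. At a fold of at least 2, 1707 genes were higher and 570 lower. The lists, higher and lower, then held 2 and 1 elastic fibre genes, 0 and 1 small proteoglycans, 1 and 1 large proteoglycans, 0 and 2 chain synthesis genes, 1 and 3 proteases, and 0 and 4 receptors. The elastic fibre genes higher at this fold, ELN and ADAMTS10, passed the filter through the HSD52_OE libraries alone, as did FBLN5 among the members. At an adjusted p of 0.01, 1 small proteoglycan and 3 proteases were lower and 2 receptors higher. With each library left out in turn, the count of lower small proteoglycans ranged from 1 to 3, of higher receptors from 2 to 5 and of higher proteases from 2 to 5 (5 without control replicate 1), and the members stayed at 3 and 5.

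Among neighbours, 4 uncalled genes near 0 changed sign with a library left out, with log2 fold changes of -0.0885 to 0.0404 for FAM118A, -0.0052 to 0.1054 for PPP4R3A, -0.0939 to 0.2193 for VRK2 and -0.0677 to 0.0755 for BTG1. FAM118A was at 0.10 with library totals and 0.0025 with at least 1 CPM in 3 libraries, MUS81 at 0.0010 with library totals, and BTG1 at -0.0133 with no filter. The uncalled LTBP3 and LTBP4 ranged from -0.1486 to 0.1062 and from -0.1621 to 0.0044 with a library left out, LTBP3 was at -0.0311 with no filter, and LTBP4 at 0.0701 with library totals. The cause was not tested. Libraries with the same replicate number had deviations correlated at 0.038, 0.031 and 0.033, each library highest with its own number, and the labels do not say that numbers pair libraries. The block gave 4210 higher and 4226 lower genes. Per-length levels over principal transcripts were added after the data were seen. FBLN2 and most small proteoglycans lie below what this depth can compare.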
